A study of Mus musculus with 64 samples.

Results

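KLRG1 was 1 of 11 surface proteins counted with tagged antibodies in a mouse model of colitis caused by transferred T cells, and it is described here across T cell, innate lymphoid and myeloid surface phenotypes. It was taken as the antibody row of that name in all 9 libraries of the sorted immune fraction (EpCAM-/CD45+), and 130442 of 131917 barcodes were kept. All groups, week 0 included, are labelled as SCID mice with CD45RBhi transfer, and the RNA libraries of the same fractions as BALB/c SCID. Distal colon was collected. The untreated libraries came from weeks 0 to 7, 1 library a week, and the ninth came from week 7 of mice that also received anti-IL-12p40 from day 10. Each library pooled colons of 3 animals, so the library was the unit of every test, the spread between pools of 1 week is unknown, and the treated library was compared with 1 untreated library and no test. The labels give no sex or age.

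KLRG1 is an inhibitory C-type lectin-like receptor whose ligands are cadherins, E-cadherin of epithelia among them. In mice it is known on effector CD8 T cells, natural killer cells, some regulatory T cells and group 2 innate lymphoid cells. CD103, another antibody of the panel, is an integrin chain whose partner on epithelia is also E-cadherin. SCID mice lack T and B cells of their own and keep innate lymphoid cells, and transferred CD45RBhi cells are naive T cells that expand in such hosts. Klrg1, which encodes the protein, is gene ENSMUSG00000030114.8 on chromosome 6, positions 122270596 to 122282882, minus strand, in the GENCODE annotation of GRCm38.

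The libraries held 11534 to 21229 barcodes, with a median of 576.5 to 1566 antibody counts in kept cells, and pairs of libraries shared 30 to 110 barcodes. KLRG1 took 1.92% of antibody counts at week 0, 1.87% at week 1, 0.327% to 0.941% at weeks 2 to 7 and 1.17% in the treated library. Levels are centred log ratios (CLR), the natural log of a cell's count plus 1 minus the cell's mean of that log over the 11 antibodies, so a level is relative to the rest of the panel. A cell was called KLRG1+ above a CLR of -0.56, where the lower component (mean -2.10) and the upper component (mean 0.62) of a 2-component mixture were equally probable. Shares carry exact binomial 95% intervals, which cover counting error only. CD3+CD4+ cells have the phenotype of helper T cells, and 1 of 16735 cells had it at week 0. CD3-CD90.2+CD4- cells without CD11b, CD11c and CD64 have the phenotype of innate lymphoid cells. The panel holds no marker of natural killer cells, CD8, regulatory T cells or subsets of innate lymphoid cells, so these phenotypes were not divided further.

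KLRG1 was highest on the innate lymphoid phenotype. Its mean CLR over the 8 untreated libraries was -0.41 ± 0.42 (SD), against -1.43 ± 0.48 on CD3+CD4- cells, -1.77 ± 0.40 on CD3-CD90.2+CD4+ cells and -1.84 ± 0.34 on CD3+CD4+ cells (7 libraries). Neutrophil-type cells (CD11b+Ly-6G+) had the lowest mean CLR, -2.31 ± 0.19. They did not pass against CD11b+Ly-6C+CD64+ cells (difference -0.11 ± 0.13, exact sign-flip permutation p = 0.0703, adjusted p = 0.0791). Their mean KLRG1+ share was the higher of these 2, 5.43% against 1.89% (higher in 8 of 8 libraries). Within each library the innate lymphoid phenotype exceeded CD3+CD4+ cells, by 1.38 ± 0.41 on average (7 of 7 libraries, exact sign-flip permutation p = 0.0156, adjusted p = 0.0201 over 36 phenotype pairs). Of these pairs 29 passed, a background of 80.6%, so most pairs of phenotypes differed in KLRG1 CLR, a level relative to the rest of the panel. On log counts after scaling each cell to its library's median total, 12 of the 28 pairs that could be tested passed. The smallest p that 7 libraries allow in this exact permutation test is 0.0156.

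Among phenotypes in the middle of the order some pairs passed and others did not. CD3+CD4- minus CD3-CD90.2+CD4+ cells gave 0.35 ± 0.22 (higher in 7 of 8 libraries, exact permutation p = 0.0156, adjusted p = 0.0201). CD64+Ly-6C- minus CD11c+CD64- cells gave -0.38 ± 0.27 (8 libraries, exact permutation p = 0.00781, adjusted p = 0.0122). The pairs that follow did not pass. CD3+CD4+ cells minus CD3-CD90.2+CD4+ cells, their neighbours above, gave -0.06 ± 0.20 on the CLR scale (7 libraries, exact permutation p = 0.5). CD3+CD4+ cells minus CD64+Ly-6C- cells, their neighbours below, gave 0.24 ± 0.35 (higher in 6 of 7 libraries, exact permutation p = 0.141, adjusted p = 0.145). CD3+CD4- cells minus CD11c+CD64- cells, a phenotype that includes dendritic cells and came next at -1.66 ± 0.35, gave 0.23 ± 0.27 (higher in 6 of 8 libraries, exact permutation p = 0.0469, adjusted p = 0.0544). Farther apart in the order, CD3+CD4+ minus CD3+CD4- cells gave -0.39 ± 0.40 (lower in 6 of 7 libraries, exact permutation p = 0.0469, adjusted p = 0.0544). These misses do not show that the levels were alike. Cells that fell in no phenotype were second in the order at -0.80 ± 0.52, with medians of only 153 to 852 antibody counts.

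On the innate lymphoid phenotype KLRG1 split the cells into 2 groups. A mixture fitted in this phenotype alone put the lower group at -1.56 and the upper at 1.69 at week 0, with a separation of 5.01 (Ashman's D, which sets the gap of the 2 fitted means against their SDs and is read as not separated at 2 or less). In the other 5 libraries with at least 200 such cells the separation was 3.49 to 4.98. The upper group had means of 1.61, 1.24 and 0.55 in weeks 1, 2 and 3, of 0.89 in week 5 and of 1.74 in the treated library. In raw counts the KLRG1+ cells of this phenotype had a median of 76 at week 0 and of 64 with treatment, against 27 to 46 in the other 7 libraries. Raw counts also follow depth, and the median total of this phenotype was 1116 at week 0, 908 with treatment and 533 at week 1. The median CLR of its KLRG1+ cells was 1.69, 1.71 and 1.60 in these libraries, so week 1 was nearly as bright relative to the panel.

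On CD3+CD4+ cells the upper group was dimmer and less set apart. Its fitted mean lay between -0.25 and 0.16 in the first 3 weeks after transfer, with a separation of 3.01 to 3.44. From week 4 on the mean lay between -0.93 and -0.49 and the separation between 1.73 and 2.41. Week 6 alone fell under 2, and weeks 4, 5 and 7 lay between 2.30 and 2.41, closer to that limit than the earlier weeks. KLRG1+ cells had a median count of 43 at week 1 and of 22 to 35 afterwards, and of 36 with treatment. The lower group of CD3+CD4+ cells lay between -2.59 and -2.20 in all 8 libraries, below that of the innate lymphoid phenotype (-1.95 to -1.29).

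**Figure D1:**
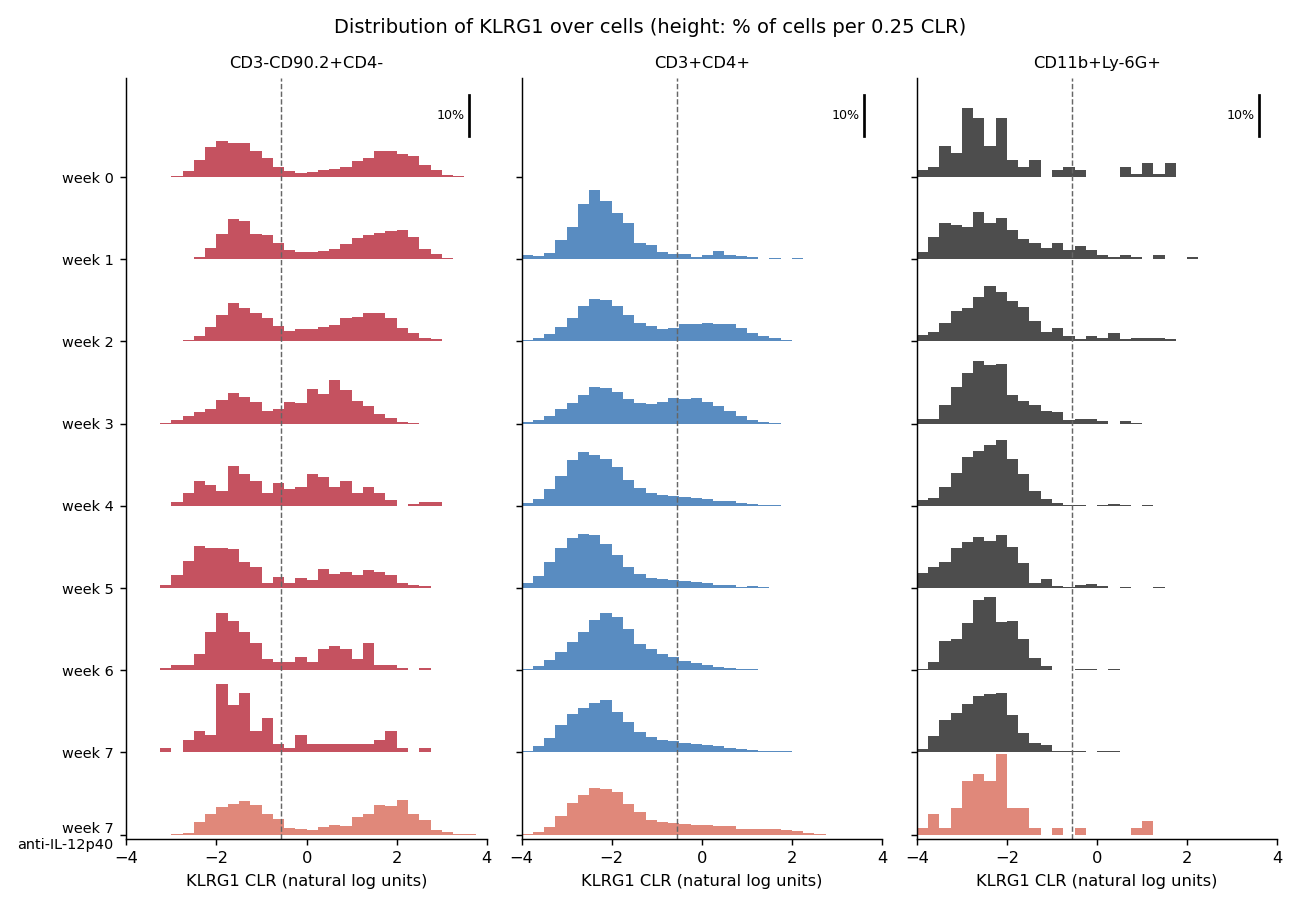
Distribution of KLRG1 over cells. The horizontal axis is the KLRG1 CLR and the height of each histogram is the percentage of cells per bin of 0.25, for 3 phenotypes, with 1 row per library. The dashed line is the threshold at -0.56 and the light red row is the treated library. CD3-CD90.2+CD4- cells show 2 groups in most rows, CD3+CD4+ cells show a second group at weeks 2 and 3, and most CD11b+Ly-6G+ cells lie below the threshold.

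Over time the innate lymphoid phenotype carried less KLRG1 in the later libraries, in an order that did not pass after adjustment. Its mean CLR was -0.09, 0.21, -0.03, -0.31, -0.48, -0.90, -0.79 and -0.88 at weeks 0 to 7. Weeks 4 to 7 were all below weeks 0 to 3. The rank correlation with week was -0.857 (exact permutation p = 0.0107, adjusted p = 0.111 over 52 pairs of antibody and phenotype; Pearson r = -0.917, exact permutation p = 0.00268, adjusted p = 0.0684). Without weeks 0 and 7, the weeks farthest from the middle, r was -0.967. Of the 52 pairs none passed, a background of 0%, and 12 had an unadjusted exact p under 0.05. The KLRG1+ share of this phenotype was 48.0%, 56.2%, 55.2%, 59.5%, 49.5%, 36.2%, 37.1% and 28.1% (19.4 to 38.2) at weeks 0 to 7. Only 96 to 254 cells had the phenotype at each of weeks 4 to 7, against 957 to 6401 before.

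CD3+CD4+ cells followed another course, with KLRG1 highest at weeks 2 and 3. Their mean CLR was -1.99, -1.36, -1.36, -2.05, -2.25, -1.89 and -1.93 at weeks 1 to 7. The KLRG1+ share was 8.60% (6.49 to 11.1) of 605 cells at week 1 and 29.9% in both following weeks, then 10.4%, 7.53%, 8.48% and 12% in weeks 4, 5, 6 and 7. Weeks 2 and 3 stood above every other untreated library by more than counting error. A straight order with week was not found (rank correlation -0.214, exact permutation p = 0.662, adjusted p = 0.720; Pearson r = -0.403, exact permutation p = 0.361), and a peak in the middle was not tested. CD3-CD90.2+CD4+ cells had their highest shares in those 2 libraries, 31.1% and 25.3%, against 4.44% to 10.9% in the other 6. CD3+CD4- cells had 46.2% at week 2 (41.6 to 50.8), 19.1% at week 1 and 1.82% to 12.5% in the other 6 libraries, with 52 to 470 cells in each.

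Over all cells the mean KLRG1 CLR was -1.01, -0.79, -1.24, -1.41, -2.04, -2.21, -1.94 and -1.95 at weeks 0 to 7, and no library of weeks 4 to 7 reached the range of weeks 0 to 3. The rank correlation with week was -0.786 (exact permutation p = 0.0279, adjusted p = 0.0768 over 11 antibodies). Pearson's r was -0.873 (exact permutation p = 0.00774, adjusted p = 0.0284), which passed, and r was -0.906 without weeks 0 and 7. On log counts after scaling each cell to its library's median total, the rank correlation was -0.571 over all cells (exact permutation p = 0.151, adjusted p = 0.416) and -0.524 in the innate lymphoid phenotype (exact permutation p = 0.197, adjusted p = 0.706). By rank, 1 of the 11 antibodies passed, a background of 9.09%, and it was CD4. Median antibody counts per cell had a rank correlation of 0.643 with week (exact permutation p = 0.0962). Their rank correlation with the KLRG1 level was -0.429 over all cells (exact permutation p = 0.299) and -0.238 in the innate lymphoid phenotype (exact permutation p = 0.582).

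**Figure D2:**
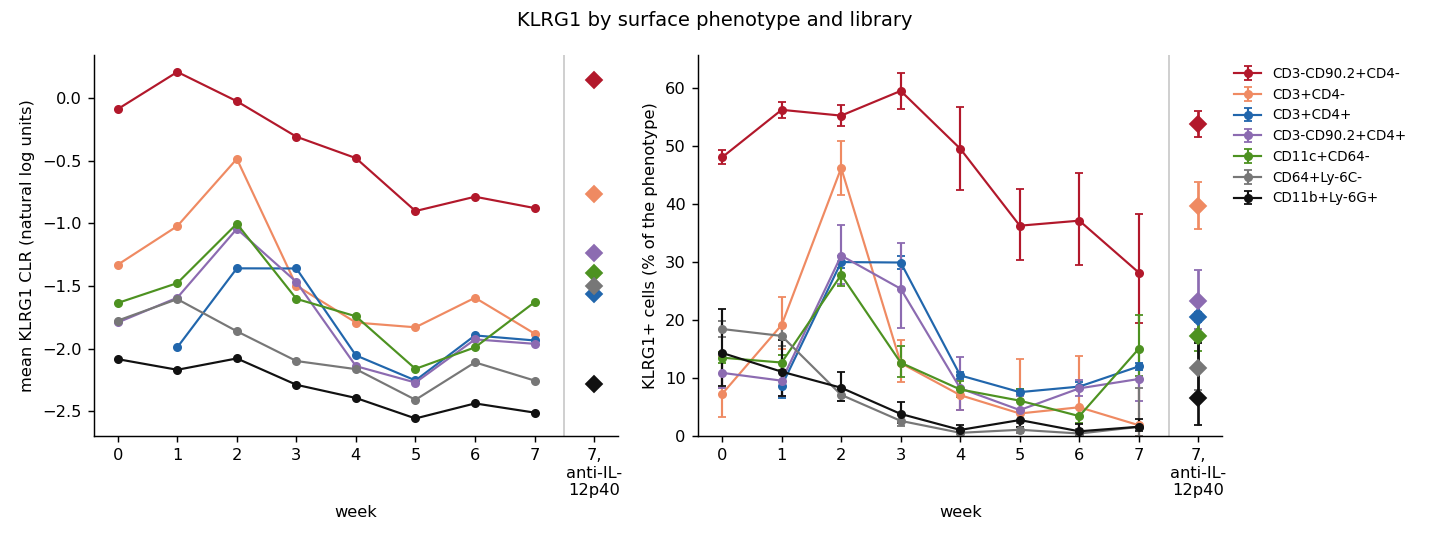
KLRG1 by week in 7 phenotypes. The left panel shows the mean CLR and the right panel the KLRG1+ share with exact binomial 95% intervals, for libraries with at least 50 cells of the phenotype, with the treated library as diamonds. CD3-CD90.2+CD4- cells are on top in every library, the CD3+CD4+ share peaks at 29.9% at weeks 2 and 3, and CD11b+Ly-6G+ cells have the lowest mean throughout.

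KLRG1 was also counted on the myeloid phenotypes, which are not known for it. Whether these counts are background was not tested. Among CD11b+Ly-6G+ cells 14.3% (8.55 to 21.9) were KLRG1+ at week 0, then 11.1%, 8.28% and 3.77% in the next 3 weeks, and 0.774% to 2.71% from week 4 on. Macrophage-type cells (CD64+Ly-6C-) had 18.4%, 17.2% and 7.05% in weeks 0, 1 and 2, and 0.390% to 2.57% from week 3 on. Both had a rank correlation of the mean CLR with week of -0.857, the value found for the innate lymphoid phenotype (exact permutation p = 0.0107, adjusted p = 0.111). The other myeloid phenotypes tested had weaker orders, -0.524 in CD11b+Ly-6C+CD64+ cells (exact permutation p = 0.197) and -0.5 in CD11c+CD64- cells (exact permutation p = 0.216), whose KLRG1+ share was highest at week 2 (27.7%) and 15.0% at week 7. The part of KLRG1 counted on myeloid cells in the order of the innate lymphoid phenotype was not tested.

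KLRG1 on these myeloid cells went with CD90.2, a marker of lymphoid cells, though outside the CD11c+CD64- phenotype mainly in the early libraries. At week 0, 32.0% (29.8 to 34.3) of 1758 CD90.2+ and 3.07% (2.28 to 4.06) of 1561 CD90.2- cells of the CD64+Ly-6C- phenotype were KLRG1+. Over the untreated libraries the share was 0% to 3.34% in the CD90.2- and 1.19% to 35.2% in the CD90.2+ cells of this phenotype. For CD11c+CD64- cells it was 0.636% to 8.05% without and 11.1% to 41.7% with CD90.2. In CD64+Ly-6C- cells the shares with and without CD90.2 were 1.19% and 0.494% at week 4, and 1.90% and 0.877% at week 5. Intervals overlapped in both weeks, and week 6 had 3.19% and 0%. CD11b+Ly-6G+ cells had 1.74% with and 1.52% without CD90.2 at week 7. Over the other 10 antibodies, KLRG1+ macrophage-type cells of week 0 carried a median of 2964 counts and KLRG1- ones 1623, a ratio of 1.83, while the ratio was 1.03 in the innate lymphoid phenotype. These counts include CD90.2, with medians of 1854 on KLRG1+ and 182 on KLRG1- macrophage-type cells. The ratio is thus not separate from the relation with CD90.2, which is part of the gate of the innate lymphoid phenotype. Droplets shared by 2 cells were not identified. Without CD90.2, CD11b+Ly-6G+ cells had a KLRG1+ share of 0.741% to 6.72%, and with CD90.2 0.893% to 23.5% (7 libraries). Both ranges lay below 28.1%, the lowest share of the innate lymphoid phenotype. The highest shares of CD90.2+ cells in the CD64+Ly-6C- and CD11c+CD64- phenotypes, 35.2% and 41.7%, lay above it.

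The phenotypes that held the KLRG1+ cells differed between early and late libraries. The innate lymphoid phenotype made up 63.2%, 66.3%, 28.6% and 17.3% of KLRG1+ cells in weeks 0, 1, 2 and 3, and 2.0% to 8.3% from week 4 on. Of all cells it was 38.2%, 38.1%, 13.9% and 7.62% in weeks 0 to 3, and 0.806% to 1.83% from week 4 on. CD3+CD4+ cells made up 1.3% at week 1 and 43.8% at week 2, 66.1% to 72.3% over the next 4 weeks, and 91.2% at the end. Of all cells they were 4.80% at week 1, 39.3% at week 2, 53.8% to 71.6% over the next 4 weeks and 87.7% at the end. At week 5 they made up 67.7% of KLRG1+ cells and 71.6% of all cells. The KLRG1+ share of all cells was 32.3% at week 1 and 11.5% at week 7, a difference of -20.8 percentage points. Of this, -14.4 points came from the shares of the phenotypes and -6.38 points from KLRG1 within them, by a split that weights both libraries equally. From week 1 to week 3 the 2 terms had opposite signs, -11.4 points from the phenotype shares and 5.29 points from within, of which CD3+CD4+ cells gave 6.80 points.

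**Figure D3:**
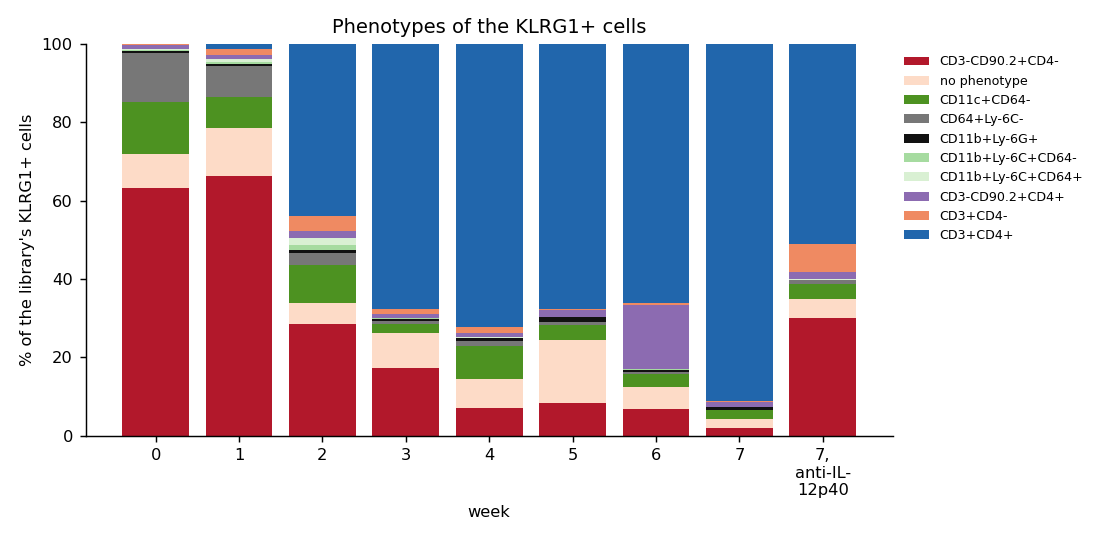
Phenotypes of the KLRG1+ cells. Each bar is 1 library and its parts are the percentages of that library's KLRG1+ cells in each of 10 phenotypes. CD3-CD90.2+CD4- cells hold 63.2% at week 0 and CD3+CD4+ cells hold 91.2% at week 7, while the treated library has both. Of all cells these phenotypes were 38.2% at week 0 and 87.7% at week 7, respectively.

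In the innate lymphoid phenotype KLRG1 went together with CD103. CD103+ cells were 36.6% of KLRG1+ and 4.66% of KLRG1- cells at week 0, and 53.3% against 11.7% at week 5. In each of the 7 untreated libraries with at least 50 cells of both kinds the KLRG1+ side was higher, with ranges of 23.9% to 53.3% and 4.50% to 19.2% that do not overlap. A cell with many KLRG1 counts has lower CLR values for all its other antibodies by construction, so the tests used levels centred over the 9 antibodies other than KLRG1 and the partner. On that scale CD103 was 0.83 ± 0.22 higher on KLRG1+ cells (higher in 7 of 7 libraries, exact sign-flip permutation p = 0.0156, adjusted p = 0.125 over 16 tests). None of the 16 tests passed after adjustment, a background of 0%, and 5 had an unadjusted exact p under 0.05.

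CD3+CD4+ cells showed the opposite relation in the untreated libraries. CD103+ cells were 7.69%, 3.77%, 1.94%, 5.88%, 8.28%, 5.73% and 8.56% of KLRG1+ cells at weeks 1 to 7. Among KLRG1- cells they were 7.78%, 5.58%, 10.2%, 14.3%, 24.7%, 12.8% and 26.8%. The KLRG1+ side was lower in 7 of 7 libraries, by only 0.08 points at week 1 and by 18.3 points at week 7. These shares rest on the plain CLR, which a high KLRG1 count lowers for other antibodies. The shares of CD11b, CD64, Ly-6C and Ly-6G were also lower on KLRG1+ cells in 7 of 7 libraries, so this sign of the shares is not particular to CD103. On the centred scale these antibodies differed by -0.02, 0.0005, 0.09 and 0.06, respectively, each within its SD. The CD103 difference on that scale was -0.24 ± 0.21, lower in 6 of 7 libraries (exact sign-flip permutation p = 0.0469, adjusted p = 0.143). CD103 at week 1 was 0.13 higher on KLRG1+ cells. The difference between the phenotypes in this relation was itself 0.98 on that scale over the 6 libraries with both (exact sign-flip permutation p = 0.0312, the smallest 6 libraries can give, for 1 comparison chosen after its values were seen).

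**Figure D4:**
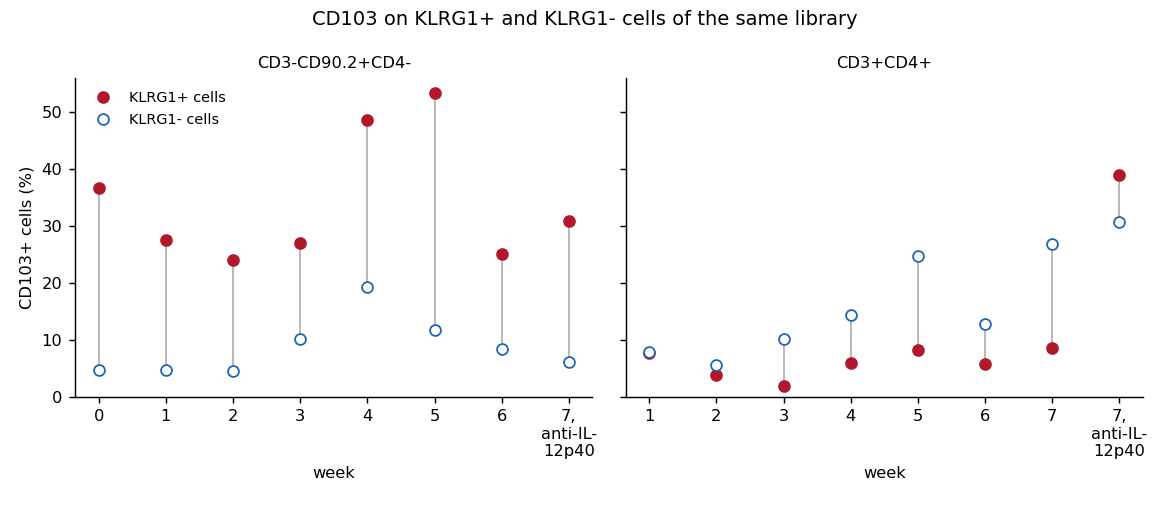
CD103 on KLRG1+ (filled) and KLRG1- (open) cells of the same library. The vertical axis is the percentage of CD103+ cells, with libraries that have at least 50 cells of both kinds, so week 7 is missing from the left panel. Filled points are on top in every library of CD3-CD90.2+CD4- cells and below in each untreated library of CD3+CD4+ cells, with 38.8% against 30.6% in the treated library.

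The relation of CD103 to KLRG1 on CD3+CD4+ cells was not monotonic. At week 7, 33.1% of cells with no KLRG1 count were CD103+, 24.9% of those with 1 to 9 counts, 5.78% with 10 to 29 counts, 7.82% with 30 to 99 counts and 50.8% (41.6 to 60.0) of the 122 cells with 100 or more. Cells with intermediate KLRG1 were thus the poorest in CD103, and the brightest cells were the richest. The CD103+ share of cells with 100 or more KLRG1 counts was 13.2% of 106 in week 2 and 4.61% of 152 in week 3. It was 32.8% (21.8 to 45.4) of 67, 34.5% (22.2 to 48.6) of 55 and 56.0% (34.9 to 75.6) of 25 in weeks 4, 5 and 6. At week 2 it was above the 5.03% of all CD3+CD4+ cells (interval 7.41 to 21.2), and at week 3 below their 7.73%. From week 4 on it was above the share of all CD3+CD4+ cells, which was 12.2% to 24.6%, though the interval of week 5 includes that week's 23.4%. These count classes were chosen after their values were seen and were not tested.

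The shares were also taken with each cell thinned to 200 counts and cells under 200 left out, in lower count classes that do not match those above. At week 7 the CD103+ share was then 24% of cells with no KLRG1 count, 14.7% with 1 or 2 counts, 3.52% with 3 to 9 counts and 26.7% of the 258 cells with 10 or more. Cells with 10 or more had 12.4% at week 4 and 15.9% at week 5, under the 13.9% and 23.6% of cells with none. In the treated library cells with 10 or more had 78.3%. Cells with 3 to 9 counts were below cells with none in 7 of 8 libraries, and above them at week 1, where they had 12% of 25 cells against 6.99%. Within KLRG1+ CD3+CD4+ cells of week 7, CD103+ cells had a median of 117 KLRG1 counts and CD103- cells 24. At week 2 these medians were 35 and 22. In the innate lymphoid phenotype KLRG1 counts were not higher on CD103+ cells (70.5 against 81 at week 0, 34 against 42 at week 1), and its CD103+ share was highest at 10 to 99 KLRG1 counts in all 9 libraries, with under 20 cells in the classes from 10 counts on at week 7.

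**Figure D5:**
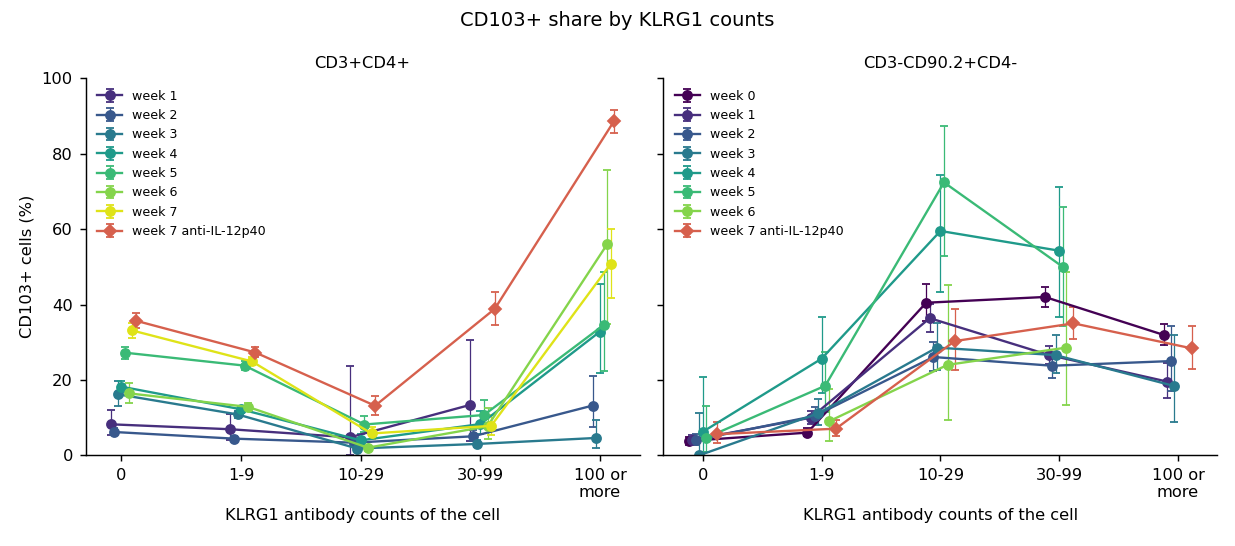
CD103+ share by the KLRG1 counts of a cell. The horizontal axis gives classes of KLRG1 antibody counts and the vertical axis the percentage of CD103+ cells with exact binomial 95% intervals, for classes of at least 20 cells, 1 line per library. In CD3+CD4+ cells the line dips at 10 to 29 counts and reaches 50.8% at week 7 and 88.8% with treatment at 100 or more, while in CD3-CD90.2+CD4- cells each class shown from 10 counts on is above the class at 0.

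CD127, the interleukin-7 receptor chain of resting T cells and innate lymphoid cells, was not separable into 2 groups (Ashman's D 1.5), so its positive shares are rough. Among CD3+CD4+ cells 11.7% to 48.1% of KLRG1+ and 32.3% to 73.3% of KLRG1- cells were above its threshold, and the centred level was 0.22 ± 0.18 lower on KLRG1+ cells, from -1.28 to -1.50 (lower in 6 of 7 libraries, exact sign-flip permutation p = 0.0312, adjusted p = 0.125). In the innate lymphoid phenotype it was -0.40 on KLRG1+ and -0.28 on KLRG1- cells (difference -0.12 ± 0.10, lower in 6 of 7 libraries, exact sign-flip permutation p = 0.0312, adjusted p = 0.125). There 94.9%, 93.5%, 76.5%, 81.7%, 67.0%, 70.7% and 57.1% of KLRG1+ cells were above the CD127 threshold in weeks 0 to 6, so most carried both by this rough call. KLRG1- cells had more in each of these libraries, 66.3% to 96.7%. The CD127 shares of both phenotypes rest on the plain CLR, which a high KLRG1 count lowers for other antibodies. On the centred scale CD127 was 0.07 higher on KLRG1+ cells of the innate lymphoid phenotype at week 6. The difference in CD90.2 by KLRG1 on CD3+CD4+ cells was within its spread (0.04 ± 0.13, exact sign-flip permutation p = 0.5).

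As a description, the antibodies most like KLRG1 were sought in mean CLR over 84 points of phenotype and library, which share libraries and cells. Pearson's r was 0.697 for CD127, 0.529 for CD90.2 and 0.202 for CD103. Within cells of the innate lymphoid phenotype the median rank correlation over 8 untreated libraries was 0.343 for CD103 (0.139 to 0.470), 0.125 for Ly-6C and 0.009 for CD3. Within CD3+CD4+ cells it was 0.359 for Ly-6C (0.162 to 0.407), 0.283 for CD3 and 0.215 for Ly-6G over 7 libraries. Both values of a cell share its depth and staining, and on uncentred log counts the values were 0.339 for CD103 in the innate lymphoid phenotype and 0.198 for Ly-6C in CD3+CD4+ cells.

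The last comparison set the week 7 library of anti-IL-12p40 treated mice beside the untreated library of week 7. KLRG1+ cells were 26.3% (25.6 to 27.1) of all cells with and 11.5% (10.9 to 12.1) without treatment. In the innate lymphoid phenotype they were 53.7% (51.4 to 56.0) of 1833 against 28.1% (19.4 to 38.2) of 96 cells, and the mean CLR was 0.15 against -0.88. In CD3+CD4+ cells they were 20.4% (19.5 to 21.3) against 12% (11.3 to 12.6), in CD3+CD4- cells 39.6% (35.6 to 43.7) of 588 against 1.82% (0.05 to 9.72) of 55 cells, and in CD3-CD90.2+CD4+ cells 23.2% (18.4 to 28.6) against 9.79% (6 to 14.9). These 4 of 8 phenotypes met a rule of size, a ratio of at least 1.5 either way with intervals apart and a treated value outside the range of untreated weeks 5 to 7. Over all antibodies and phenotypes 14 of 46 met it, a background of 30.4%. The CD3+CD4- phenotype also differed in other antibodies between the 2 libraries. CD90.2+ cells were 82.1% of it with treatment and 45.5% without, CD11b+ cells 5.10% and 25.5%, and Ly-6G+ cells 0.510% and 21.8%. The part of this in its KLRG1+ share was not tested.

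The size of the treated difference depended on the threshold in CD3+CD4+ cells. With thresholds fitted in each library, at -1.12 untreated and -0.42 treated, the shares were 18.7% in both libraries and the ratio was 1.00. With counts scaled to the library median the ratio was 1.31, and thinned to 200 counts the innate lymphoid phenotype had 59.4% against 40.2%, a ratio of 1.48, so that each of these 3 ratios falls short of the rule. No myeloid phenotype met the rule. KLRG1+ cells were 11.7% (7.89 to 16.4) against 1.54% (0.04 to 8.28) of CD64+Ly-6C- cells and 6.56% (1.82 to 15.9) against 1.56% (0.75 to 2.85) of CD11b+Ly-6G+ cells, with intervals that overlap. Of CD11c+CD64- cells, the largest of these phenotypes in the treated library, they were 17.1% (14.6 to 20.0) of 776 against 15.0% (10.3 to 20.9) of 193. The part of these cells in the result was not tested. The 14.8 points between the libraries over all cells split into 4.62 points from the phenotype shares and 10.2 points from within, of which CD3+CD4+ cells gave 6.48.

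The bright end of CD3+CD4+ cells also differed between the libraries. Cells with 100 or more KLRG1 counts were 5.46% (4.98 to 5.97) of CD3+CD4+ cells with treatment, 1.17% (0.97 to 1.39) without, and 0.392% to 2.05% at weeks 1 to 6. Of these bright cells, 397 of 447 were CD103+ with treatment (88.8%, 85.5 to 91.6) and 62 of 122 without (50.8%, 41.6 to 60.0). KLRG1+CD103+ cells were 7.92% (7.35 to 8.53) of CD3+CD4+ cells with treatment, 1.02% (0.84 to 1.24) without, and 0.486% to 1.13% at weeks 1 to 6. If KLRG1 and CD103 were unrelated within a library these shares would be 6.58% and 2.95%. On the centred scale CD103 was 0.40 higher on KLRG1+ CD3+CD4+ cells of the treated library, and 0.51 lower on those of untreated week 7, from -0.87 to -1.38.

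The treated library was deeper, with a median of 1913 against 1332 counts on CD3+CD4+ cells, and a fixed count class follows depth. At 200 counts per cell, 447 of 7466 CD3+CD4+ cells had 10 or more KLRG1 counts with treatment and 258 of 9831 without. Untreated week 2 had 356 of 7465 and week 3 had 441 of 7107, so the treated share was not above that of week 3. The CD103+ shares of cells with 10 or more KLRG1 counts were 78.3% with treatment and 26.7% at untreated week 7. There were 649 KLRG1+CD103+ cells of the CD3+CD4+ phenotype and 303 of the innate lymphoid phenotype in the treated library, and 107 and 8 in untreated week 7. CD127 was above its threshold on 30.6% of the bright CD3+CD4+ cells and on 94.9% of bright cells of the innate lymphoid phenotype in the treated library. CD103 was carried by 32.3% of all CD3+CD4+ cells with and 24.6% without treatment.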

How the data were processed

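The deposited tables hold whole-number counts of 11 antibodies per barcode, not normalized, in 9 of 64 samples, and the others were not analysed here. Seurat 4.1.1, Cell Ranger 6.0.2 and build mm10 stand in the submitters' processing notes, without their roles. The rule by which the authors chose barcodes is not given in these sources. Barcodes with under 50 counts and the top 1% by total of each library were left out. No doublet caller was run, and doublets remain.

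Thresholds came from 2-component Gaussian mixtures on 2000 cells per library, fitted over all libraries. Each cell went to the first of 10 phenotypes it met. T cell gates (CD3, divided by CD4) came first, then myeloid gates on CD11b with Ly-6G, on CD11b and Ly-6C divided by CD64, on CD64, and on CD11c. CD90.2+ cells lacking CD3 and the myeloid markers followed, divided by CD4, and the rest had no phenotype. A phenotype entered a test in libraries with at least 50 of its cells. Trends with week used exact permutation of libraries, comparisons within libraries exact two-sided sign flips, with Benjamini-Hochberg adjustment at 0.05 over 11 antibodies, 52 pairs of antibody and phenotype outside the gate, 36 phenotype pairs and 16 partner tests.

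KLRG1 was described in all phenotypes and libraries, and its partners were the antibodies outside a phenotype's gate, in phenotypes with at least 50 KLRG1+ and 50 KLRG1- cells in 5 or more libraries. The protein, the lists and the comparisons were chosen with earlier results of these data known. Alternatives were another scaling and centring, thinning to 200 counts, other count and cell minimums, thresholds and summaries, and leaving out each library. The steps were tested on simulated data. Mixtures were fitted with scikit-learn 1.9.0 in Python 3.11.15, tests were computed with scipy 1.17.1 and numpy 2.4.6, tables with pandas 2.3.3 and plots with matplotlib 3.10.9. The antibodies named as most like KLRG1 were the 3 with the highest correlation, and CD103, CD127 and CD90.2 were named beside it by rule, with CD4 part of both main gates.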

Additional observations from a re-analysis of the deposited data

Results flagged for a closer look

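In CD3+CD4+ cells the share of CD103+ cells among KLRG1+ minus that among KLRG1- cells was 8.27 percentage points in the anti-IL-12p40 library and between -18.3 and -0.08 points in the 7 untreated libraries, so the treated library went the opposite way to all of them. These shares rest on the plain CLR. On the centred scale CD103 was 0.40 higher on KLRG1+ cells in the treated library and 0.13 higher at week 1, and lower at weeks 2 to 7. With 1 treated library this difference was not tested.

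The CD103 difference between KLRG1+ and KLRG1- cells was 0.98 larger on the centred scale in CD3-CD90.2+CD4- than in CD3+CD4+ cells, positive in all 6 libraries with both (exact sign-flip permutation p = 0.0312). With 5 libraries, when 1 was left out or cells were scaled or thinned, it was 0.71 to 1.21 and the smallest possible exact p is 0.0625.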

How the results depend on the processing

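The higher KLRG1 level of CD3-CD90.2+CD4- over CD3+CD4+ cells passed in all 15 alternatives run, between 0.88 and 1.64. Centring over the other 10 antibodies multiplies every CLR by a constant and changes no rank or gate. The trend over all cells passed with Pearson's r (-0.873) and was -0.571 with scaled counts, where that of CD3-CD90.2+CD4- cells was -0.524. The CD3+CD4+ trend turned to 0.0952 with thresholds per library, and was -0.543 to 0.0286 with 1 library left out, positive without week 2 or week 3. The CD127 difference in CD3-CD90.2+CD4- cells was 0.0243 with scaled counts. With 1 library left out, the rank correlation was -0.857 to -0.679 over all cells and -0.893 to -0.786 in CD3-CD90.2+CD4- cells, the phenotype difference was 1.25 to 1.44, 28 to 30 phenotype pairs passed, CD103 differed by -0.30 to -0.19 in CD3+CD4+ cells and CD127 by -0.15 to -0.10 in CD3-CD90.2+CD4- cells. Of the phenotype pairs 12 of 28 passed with scaled counts and 9 of 11 with at least 200 cells, where fewer could be tested. The treated ratio in CD3+CD4+ cells, 1.70, was 1.31 with scaled counts, 1.00 with thresholds per library, 1.52 with the threshold at the 95th percentile of CD11b+Ly-6G+ cells, 2.15 with a posterior of 0.9 and 4.67 for 100 or more KLRG1 counts. In CD3-CD90.2+CD4- cells, 1.91, it was 3.33 for 100 or more counts (4 untreated cells) and 1.48, under the 1.5 of the size rule, thinned to 200 counts, and could not be had with thresholds per library, which left fewer than 50 cells. The causes were not tested.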
